A study of Mus musculus with 6 samples.

Results

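MHC class II molecules are the surface proteins on which B cells show peptides to CD4 T cells. The genes described here are the 10 that make, load and switch on these molecules in the mouse: the chains H2-Aa, H2-Ab1 and H2-Eb1, the invariant chain Cd74, the loading chaperone genes H2-DMa, H2-DMb1 and H2-DMb2, the modulator genes H2-Oa and H2-Ob, and the class II transactivator Ciita. They were chosen by symbol, and all 10 were found among the 22481 gene symbols of the table and passed the filter of a mean of at least 1 FPKM, which left 9651 genes. FPKM scales the fragments of a gene to its transcript length and to the library, so it is a level per length.

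RNA was sequenced from lung B cells, obtained by magnetic selection from C57BL/6 mice aged 3 months. WT mice gave 3 samples and 5xFAD mice gave 3 samples, and no treatment is named for either genotype. In the 5xFAD mouse, the neuronal Thy1 promoter drives human transgenes, including APP, that bear mutations of inherited Alzheimer's disease, and the line serves as a model of brain amyloid. The title of the series links lung B cells to Alzheimer-like pathology, and the comparison of the genotypes asks whether the RNA of these cells differed. The labels do not say that each sample came from its own animal, so p-values here reflect only the spread of these samples, which may be technical.

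The libraries were shallow. Estimated counts summed to 628581 to 692912 in WT and to 693172 to 782297 in 5xFAD, and Lars2, which encodes a mitochondrial tRNA synthetase, held between 37.5% and 45.7% of them. Without Lars2, totals were 341461 to 402532 in WT and 423160 to 466345 in 5xFAD, so these counts were higher in 5xFAD for many genes. Within a library many counts were multiples of 1 value, such as 1.04 in WT replicate 3 and 0.917 in 5xFAD replicate 3. The counts thus look already scaled by library, and their totals are not numbers of reads. Mouse App, the counterpart of a human transgene, stood at 38.0 ± 12.8 (WT) and 38.5 ± 6.72 FPKM (5xFAD; SD, n = 3 each), which does not check the human transgenes.

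A class II molecule is a pair of an alpha and a beta chain. H2-Aa and H2-Ab1 encode the chains of I-A, and H2-Eb1 encodes the beta chain of I-E, whose alpha chain gene is defective in the C57BL/6 strain. Cd74 fills the groove of new molecules and leads them to endosomes, where a remnant of it, CLIP, stays until H2-DM exchanges it for a peptide. H2-DO, made of the products of H2-Oa and H2-Ob, binds H2-DM and restrains it, mainly in B cells. Ciita does not bind DNA itself and acts through a complex of RFX, CREB and NF-Y factors on the X and Y boxes of class II promoters.

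The 8 H2 genes lie on chromosome 17 between 34092340 and 34316674 of GRCm38, by GENCODE M21. RefSeq promoter windows (GRCm38.p6, 250 bases before to 50 after a start) were matched for 7 of the 10 members, H2-Aa, H2-Eb1, H2-DMa, H2-DMb1, H2-DMb2, H2-Oa and H2-Ob. The windows below are shown because Ciita acts through boxes of this kind. Capitals mark an X motif, spelled AAC, then 2 or 3 bases, then TGANG, and a Y motif, spelled ATTGG, both read 5′ to 3′ on the strand of the gene.
H2-Aa, chr17:34287852-34287916, minus strand: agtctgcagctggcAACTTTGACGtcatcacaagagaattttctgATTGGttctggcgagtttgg
H2-Eb1, chr17:34305763-34305827, plus strand: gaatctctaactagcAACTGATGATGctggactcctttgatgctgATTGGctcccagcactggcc
H2-DMb1, chr17:34153085-34153149, plus strand: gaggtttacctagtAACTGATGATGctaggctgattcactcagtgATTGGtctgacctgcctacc
H2-DMb2, chr17:34145114-34145178, plus strand: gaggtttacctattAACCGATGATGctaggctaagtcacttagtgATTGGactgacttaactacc
H2-Ob, chr17:34238803-34238867, plus strand: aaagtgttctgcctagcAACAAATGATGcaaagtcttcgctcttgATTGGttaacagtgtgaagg
H2-Oa, chr17:34092291-34092355, plus strand: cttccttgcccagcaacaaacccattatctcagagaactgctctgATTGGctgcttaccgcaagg

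In 5 of these windows the X motif was followed by the Y motif after 17 to 21 bases, and the Y motif began between 48 and 90 bases upstream of the RefSeq start. The H2-Oa window held the Y motif, 43 bases upstream, and no run of the X spelling. Searched on both strands, the X motif occurred in 5.77% of all 32817 promoter windows and the Y motif in 37.4%. An X motif followed within 10 to 30 bases by a Y motif occurred in 0.222% of them, 73 windows. The spelling was chosen with these windows in view, so the shares describe how rare the letters are, and a match is not a bound site. H2-DMa had a pair of windows, of which 1 held a Y motif and neither an X motif.

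**Figure D1:**
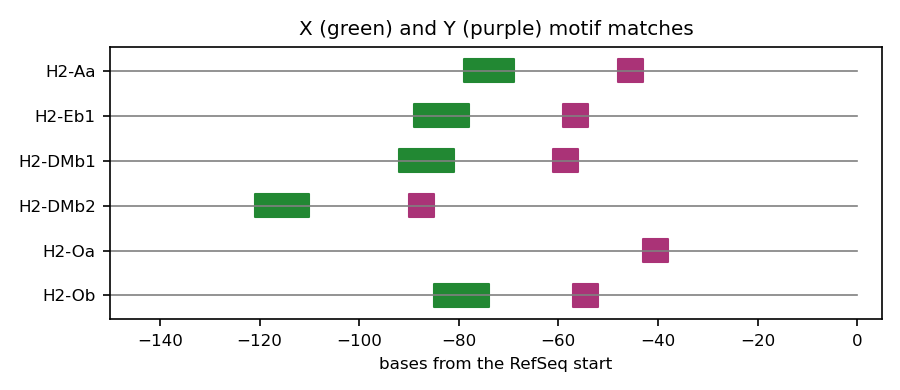
Position of the X motif (green) and Y motif (purple) in 6 promoter windows, drawn in bases from the RefSeq start, which lies at 0. The motifs sit in the same order in 5 windows, with 17 to 21 bases between them, and H2-Oa shows the Y motif alone.

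All 10 class II genes had higher estimated counts in 5xFAD than in WT, with log2 fold changes from 0.66 to 2.44, and 0 of the 10 passed the test after adjustment over all genes; with library sizes from B cell markers, H2-Ab1 was at -0.030 and the other 9 stayed above 0. In bulk RNA a larger share of B cells and more RNA of these genes per B cell cannot be told apart. Of all tested genes, 54.1% had a log2 fold change above 0. The test was edgeR's quasi-likelihood test with Benjamini-Hochberg adjustment, which called 0.104% of all 9651 tested genes as higher and 0.0104% as lower. At an unadjusted p under 0.05, 9 of the 10 members were higher and 0 lower, where 8.46% of all tested genes were higher and 3.55% lower. The members are not independent results. All come from the same libraries, the 3 chains share a locus in the file, and H2-DMb1 and H2-DMb2 are close copies. The median log2 fold change of the members was 0.99, against 0.11 for all tested genes and 0.83 for the 12 B cell markers described below. DESeq2 also called 0 members, with 9 at an unadjusted p under 0.05 where 7.25% of all its tested genes were higher. Likewise limma on log2(FPKM + 1) called 0, with 6 at an unadjusted p under 0.05 where 9.19% of all tested genes were higher. Without WT replicate 2 the number at an unadjusted p under 0.05 was 5, where 7.47% of all tested genes were higher. Without 5xFAD replicate 1 it was 4, where the share of all tested genes was also lower, at 4.01%.

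H2-Aa encodes the I-A alpha chain. It measured 200, 191 and 198 FPKM across WT replicates 1, 2 and 3, against 388, 375 and 441 FPKM across 5xFAD replicates 1, 2 and 3. The groups lay far apart, and the WT libraries were almost equal. The mean ± SD was 196 ± 4.95 FPKM for WT and 401 ± 34.9 FPKM for 5xFAD (n = 3 each), and its log2 fold change on counts was 0.84 (SE 0.28; edgeR adjusted p = 0.283). H2-Ab1, its beta chain partner, measured 239, 156 and 196 FPKM across WT replicates 1, 2 and 3, against 320, 285 and 377 FPKM across 5xFAD replicates 1, 2 and 3. Here too all 5xFAD libraries exceeded all WT libraries, but the gap was narrower, with a log2 fold change of 0.66 (SE 0.30; edgeR adjusted p = 0.375). H2-Eb1 measured 176, 126 and 175 FPKM across WT replicates 1, 2 and 3, against 337, 230 and 323 FPKM across 5xFAD replicates 1, 2 and 3. Replicate 2 was the lowest library of both genotypes for this beta chain, and its log2 fold change came to 0.80 (SE 0.31; edgeR adjusted p = 0.316). The file gives these 3 genes 1 shared locus (chromosome 17, 34263209 to 34316674), so how reads were divided among them rests on the authors' software. Summed over that locus, counts had a log2 fold change of 0.79 (SE 0.27).

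Cd74, the invariant chain (GRCm38 chromosome 18, 60803848 to 60812652), was the most abundant member. It measured 635, 382 and 395 FPKM across WT replicates 1, 2 and 3, against 842, 866 and 1044 FPKM across 5xFAD replicates 1, 2 and 3. It ranked 10th by FPKM among all genes in each WT library and 7th, 4th and 6th in 5xFAD replicates 1, 2 and 3. The groups did not overlap, although WT replicate 1 lay well above the other WT libraries. Its log2 fold change came to 0.84 (SE 0.25; edgeR adjusted p = 0.245), the smallest adjusted p among the 10 members. Together the members held 0.559% to 0.814% of the counts outside Lars2 in WT and 1.03% to 1.32% in 5xFAD.

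The DM genes were lower in level and wider in spread. H2-DMb2, a beta chain of the loading chaperone, had 110, 41.2 and 59.3 estimated counts (WT) against 148, 234 and 177 (5xFAD). The groups did not overlap in counts, with a log2 fold change of 1.28 (SE 0.42; edgeR adjusted p = 0.267). On the FPKM scale they overlapped, since WT replicate 1 at 69.6 FPKM lay above 5xFAD replicate 1 at 59.8 FPKM. H2-DMb1, the other beta chain gene, had 32.6, 41.2 and 3.12 counts (WT) against 71.8, 65.3 and 87.2 (5xFAD) (log2 fold change 1.48, SE 0.68; edgeR adjusted p = 0.386). WT replicate 3 lay far under the other WT libraries, and the groups did not overlap. Without that library the log2 fold change was 0.86 (SE 0.59). In FPKM the WT values were 21.3, 22.5 and 1.23 and the 5xFAD values 45.3, 27.1 and 34.1.

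H2-DMb1 and H2-DMb2 are close copies. The longest coding transcripts of the pair align over 848 bases at 95.4% identity, so reads can be assigned to either, and their separate values are uncertain. Their summed counts were 142, 82.4 and 62.4 (WT) against 219, 299 and 264 (5xFAD), without overlap. The sum had a log2 fold change of 1.34 (SE 0.37), in a fit chosen after the values were seen.

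H2-DMa, the alpha chain of the chaperone, gave different pictures on the 2 scales. Its counts were 36.6, 38.2 and 30.2 (WT) against 75.8, 56.8 and 96.3 (5xFAD), without overlap. Its levels were 27.7, 25.5 and 10.5 FPKM in WT and 26.4, 23.5 and 33.5 FPKM in 5xFAD, and these overlapped. It was the 1 member at an unadjusted p over 0.05, with a log2 fold change of 1.03 (SE 0.56; edgeR adjusted p = 0.480), and the difference of mean log2(FPKM + 1) was 0.47 (SE 0.53; limma adjusted p = 0.768). The scales differ because the FPKM given for 1 count of H2-DMa was 0.758 and 0.669 in WT replicates 1 and 2 and between 0.348 and 0.414 in the other libraries.

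This conversion varied by gene. For Ciita 1 count was worth between 0.0961 and 0.0962 FPKM in every library, although the count totals differed. For this gene all libraries were thus converted alike, and the counts and the FPKM shared a scaling by library. For H2-DMb2 the value was 0.634 to 0.779 in WT and 0.405 to 0.466 in 5xFAD, without overlap, which is why its 5xFAD mean was 1.69 times the WT mean in FPKM and 2.66 times in counts. For the 3 chains and Cd74 it lay between 0.437 and 0.543 throughout. For H2-Aa it was 0.496 to 0.502 in WT and 0.514 to 0.543 in 5xFAD, without overlap. For Cd74 it was 0.437 to 0.442 in WT and 0.444 to 0.451 in 5xFAD, again without overlap. The TMM-scaled counts and the FPKM gave a positive difference for all 10 members.

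**Figure D2:**
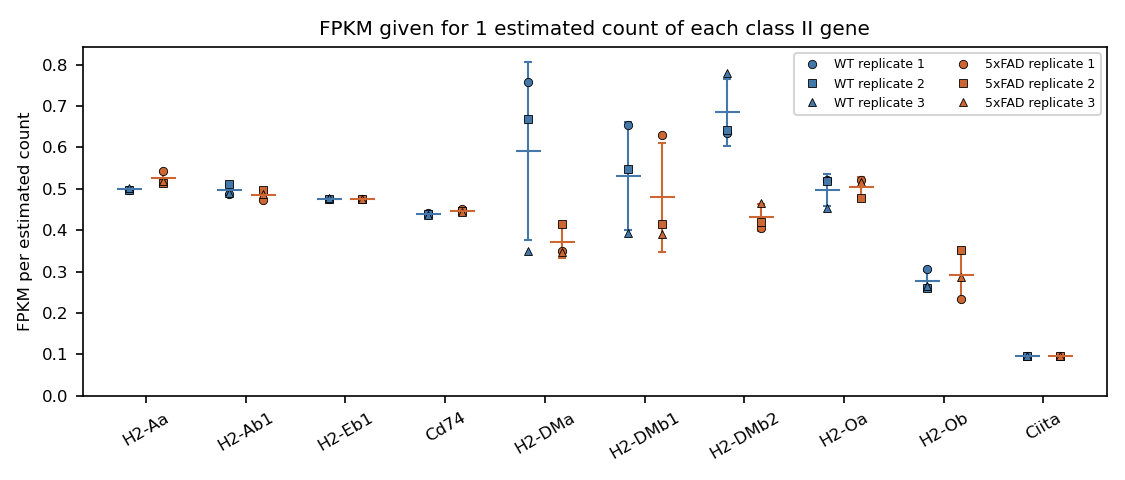
FPKM given for 1 estimated count of each class II gene, by library (points) with the mean and SD of each genotype (bars, n = 3). Ciita, H2-Eb1 and Cd74 are nearly constant, while H2-DMa runs from 0.348 to 0.758 and H2-DMb2 separates the genotypes widely. H2-Aa and Cd74 also separate them, by small margins.

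H2-Oa had the largest fold and the fewest reads of the members. This alpha chain of H2-DO had 5.93, 9.04 and 3.12 counts (WT) against 18.0, 38.8 and 52.3 (5xFAD), or 3.09, 4.69 and 1.41 FPKM against 9.35, 18.5 and 26.9 FPKM. The groups did not overlap, and the log2 fold change of 2.44 carried a wide error (SE 1.03; edgeR adjusted p = 0.337). H2-Ob, the beta chain of H2-DO, was better covered, with 143, 81.4 and 181 counts (WT) against 423, 318 and 223 (5xFAD). Its levels were 43.8, 21.1 and 48.0 FPKM against 99.1, 112 and 64.0 FPKM, and 5xFAD replicate 3 came closest to WT. Its log2 fold change came to 1.14 (SE 0.39; edgeR adjusted p = 0.290), and to 0.73 (SE 0.38) without 5xFAD replicate 1. The 2 chains thus ordered the 5xFAD libraries differently, H2-Oa being highest in replicate 3 and H2-Ob lowest there.

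Ciita, the transactivator, lies outside the class II region (GRCm38 chromosome 16, 10480059 to 10528418). It measured 24.2, 13.3 and 12.5 FPKM across WT replicates 1, 2 and 3, against 39.8, 32.5 and 30.3 FPKM across 5xFAD replicates 1, 2 and 3. All 5xFAD libraries exceeded all WT libraries, and the highest WT library was replicate 1, as for Cd74. Its log2 fold change came to 0.96 (SE 0.35; edgeR adjusted p = 0.291). Its locus in the file also holds Clec16a and Dexi, and summed over the locus the log2 fold change was 0.93 (SE 0.34).

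**Figure D3:**
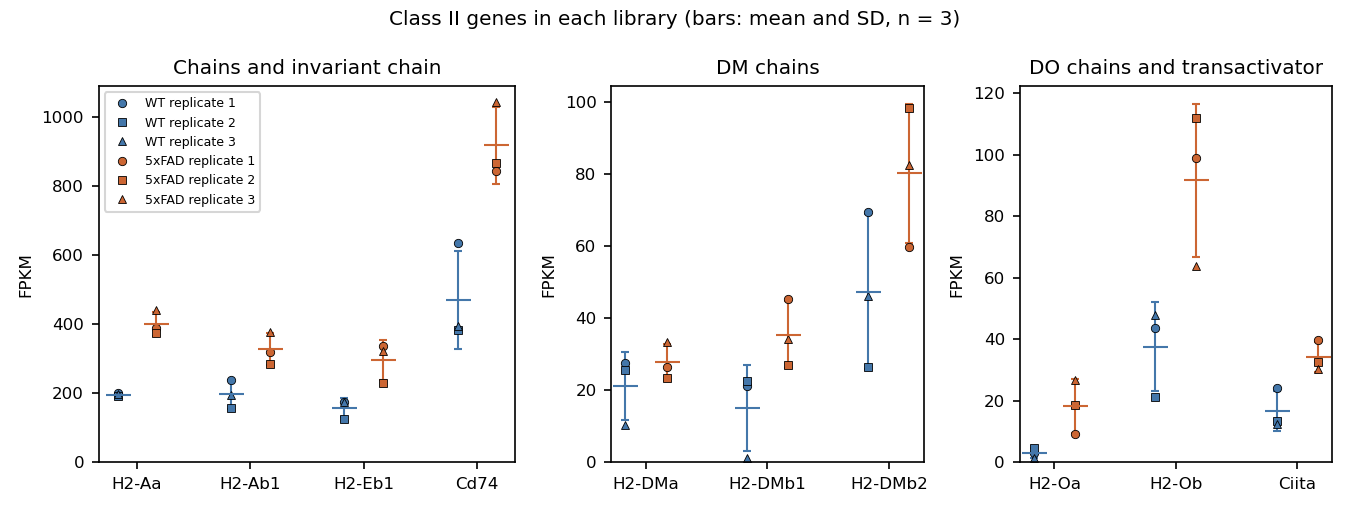
Levels of the 10 class II genes in FPKM, by library (points) with the mean and SD of each genotype (bars, n = 3). The genotypes do not overlap for 8 genes and overlap for H2-DMa and H2-DMb2.

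Between the genotypes, 8 of 10 members did not overlap in FPKM, where 13.0% of all tested genes were higher in 5xFAD without overlap and 4.42% lower. In the counts as listed, before TMM scaling, 10 of 10 did not overlap, where 14.3% of all tested genes were higher without overlap and 3.98% lower. These counts look already scaled by library, and they still carry the larger count totals of the 5xFAD libraries. As shares of the counts outside Lars2, 8 of 10 did not overlap, where 11.1% of all tested genes were higher without overlap and 6.29% lower, and H2-Eb1 and H2-Ob overlapped. Within genotypes the libraries were not interchangeable. WT replicate 1 was the highest WT library for 7 of the 10 members in FPKM, and WT replicate 2 the lowest for 6.

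Ratios between members describe their balance. The ratio of Cd74 to the sum of the 3 chains in FPKM was 1.03, 0.808 and 0.694 in WT and 0.806, 0.973 and 0.915 in 5xFAD. The ratio of the DM genes to the chains was 0.193, 0.157 and 0.102 in WT and 0.126, 0.167 and 0.132 in 5xFAD, and that of Ciita to the chains ran from 0.0220 to 0.0394 in WT and from 0.0266 to 0.0381 in 5xFAD. In each of these ratios the genotypes overlapped. H2-DO to H2-DM genes stood at 0.395, 0.346 and 0.853 (WT) against 0.825, 0.878 and 0.605 (5xFAD), again overlapping, with the highest WT library above a pair of the 5xFAD libraries.

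B cell markers were higher in the same libraries. Of 13 listed markers 12 were in the table and tested. All 12 had a positive log2 fold change, where 54.1% of all tested genes did. Of the 12, 6 were higher at an unadjusted p under 0.05, where 8.46% of all tested genes were, and 0 passed the edgeR adjustment. Their summed level was 428, 339 and 335 FPKM in WT and 757, 783 and 436 FPKM in 5xFAD, with Cd79a, a signalling chain of the B cell receptor, at 74.1 ± 18.5 and 121 ± 32.0 FPKM (SD, n = 3 each) and Cd37, a tetraspanin, at 54.3 ± 17.1 and 105 ± 53.1 FPKM. The genotypes did not overlap in this sum, but 5xFAD replicate 3 lay close to WT.

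Set against the B cell markers, the class II genes overlapped between genotypes. The summed members were 3.37, 2.86 and 3.23 times the summed B cell markers in WT and 2.86, 2.64 and 5.63 times in 5xFAD, in FPKM. In 5xFAD replicates 1 and 2 the ratio lay near or under the lowest WT library, and in replicate 3 it was far above them all. With library sizes taken from the B cell marker counts, the median log2 fold change of the members was 0.25 and 0 of the 10 were at an unadjusted p under 0.05 by edgeR, where 2.94% of all tested genes were higher. This scaling moved the median of all tested genes to -0.65. Relative to that median the members were 0.90 higher, as against 0.89 in the TMM scaling. Changed library sizes shift all genes by nearly the same amount, so this difference was bound to stay alike and is not a further result.

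On the B cell marker scale Cd74 had a log2 fold change of 0.16 (SE 0.39), H2-Aa 0.12 (SE 0.41), H2-Ab1 -0.030 (SE 0.41) and Ciita 0.19 (SE 0.44). Each error is wider than its difference, so these values do not show that the genotypes were alike on this scale. H2-Oa at 1.79 (SE 1.23), H2-DMb1 at 0.68 (SE 0.73) and H2-DMb2 at 0.61 (SE 0.52) were the members farthest above 0. Without 5xFAD replicate 3, a fit added after seeing the data, the members' median on this scale was -0.14, with 4 of 10 positive and 0 at an unadjusted p under 0.05. The median of all tested genes in that fit was -0.99, so the members were 0.85 above it. The scaling could hardly change that difference either.

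**Figure D4:**
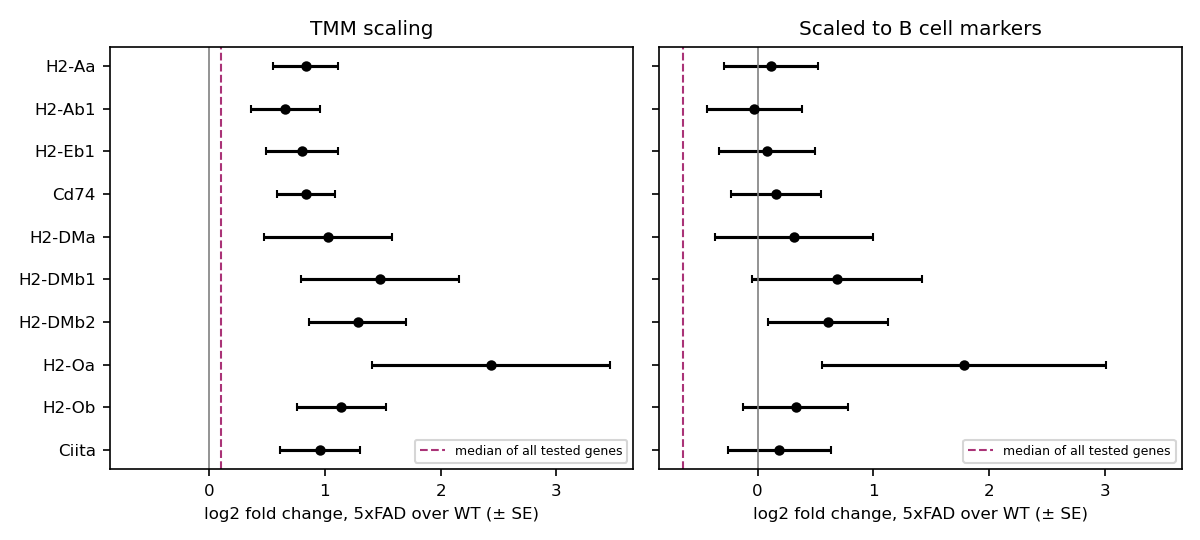
Log2 fold change of each class II gene, 5xFAD over WT, with its SE, in the TMM scaling (left) and with library sizes from B cell markers (right); the dashed line is the median of all tested genes. On the left all 10 lie above 0 and above the median. On the right H2-Ab1 is at -0.030 and all 10 lie above a median of -0.65. The scaling moves the members and the median by nearly the same amount.

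Dendritic cells and macrophages also carry class II, so their markers were read beside the members. The 9 dendritic cell markers summed to 36.0 to 38.7 FPKM in WT and 42.5 to 56.2 FPKM in 5xFAD. The groups did not overlap in this sum, and 0 of the 5 tested markers were at an unadjusted p under 0.05 by edgeR. Of these 5, 2 had a positive log2 fold change, and their median was -0.40. The most abundant was Ccr7, a homing receptor that B cells also express, at 16.9 ± 10.5 and 34.0 ± 7.28 FPKM (SD, n = 3 each), followed by Itgax at 7.13 ± 2.91 and 5.80 ± 2.93 FPKM. Without Ccr7, a sum taken after seeing the data, the markers came to 9.20 to 27.3 FPKM for WT and 10.3 to 22.1 FPKM for 5xFAD, which overlap. Clec10a was at 0 in every library. Macrophage and monocyte markers summed to 216 to 364 FPKM in WT and to 191 to 494 FPKM in 5xFAD, mostly Lyz2 (lysozyme), at 259.7 ± 75.0 and 281 ± 146 FPKM, followed by Ly6c2. Of 8 tested, 1 was lower at an unadjusted p under 0.05, Mrc1, named after its value was seen. Their sum was highest in 5xFAD replicate 3, the library with the highest class II to B cell marker ratio, and was mostly Lyz2, at 444 FPKM there. Cd68, at 20.3 FPKM, and Fcgr1 were also highest in that library, but Fcgr1 was nearly level with WT replicate 1 (2.21 against 2.19 FPKM). Marco, Ccr2, Ly6c2 and Csf1r were highest in other libraries. Mertk, at 4.23 FPKM, and Mrc1 went the other way and in 5xFAD replicate 3 lay under every WT library. The neutrophil marker sum was highest in the same library too, at 545 FPKM. The part of dendritic cells and macrophages in the class II difference was not tested.

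Markers of other cells were detected as well. Of 8 endothelial markers, all 8 had a negative log2 fold change, where 54.1% of all tested genes were above 0. Of the 8, 3 were lower at an unadjusted p under 0.05, where 3.55% of all tested genes were, with 0 past the edgeR adjustment. The 3 were Vwf, Tek and Tmem100, named after their values were seen. The 8 markers summed to 360 to 469 FPKM in WT and to 264 to 349 FPKM in 5xFAD without overlap. The sum was led by Pecam1 and Calcrl, each of which overlapped between genotypes by itself. Neutrophil markers summed to 191 to 500 and 239 to 545 FPKM, led by S100a8 and S100a9, with Ly6g at 0 in every library. T and NK cell markers, led by Nkg7 and Thy1, summed to at most 21.6 FPKM. Of 7 tested, 1 was higher at an unadjusted p under 0.05, Cd3g, named after its value was seen. Epithelial markers, led by Scgb1a1 and Sftpc, summed to 172 to 380 FPKM in WT and 149 to 225 FPKM in 5xFAD, and fibroblast markers, led by Col1a1 and Col1a2, to 24.9 to 52.4 and 36.7 to 118 FPKM, with Lum at 0 throughout. Of 5 epithelial markers tested, 1 was lower at an unadjusted p under 0.05, Scgb1a1, with a log2 fold change of -1.73 (SE 0.57). The part of these cells in the class II difference was not tested.

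**Figure D5:**
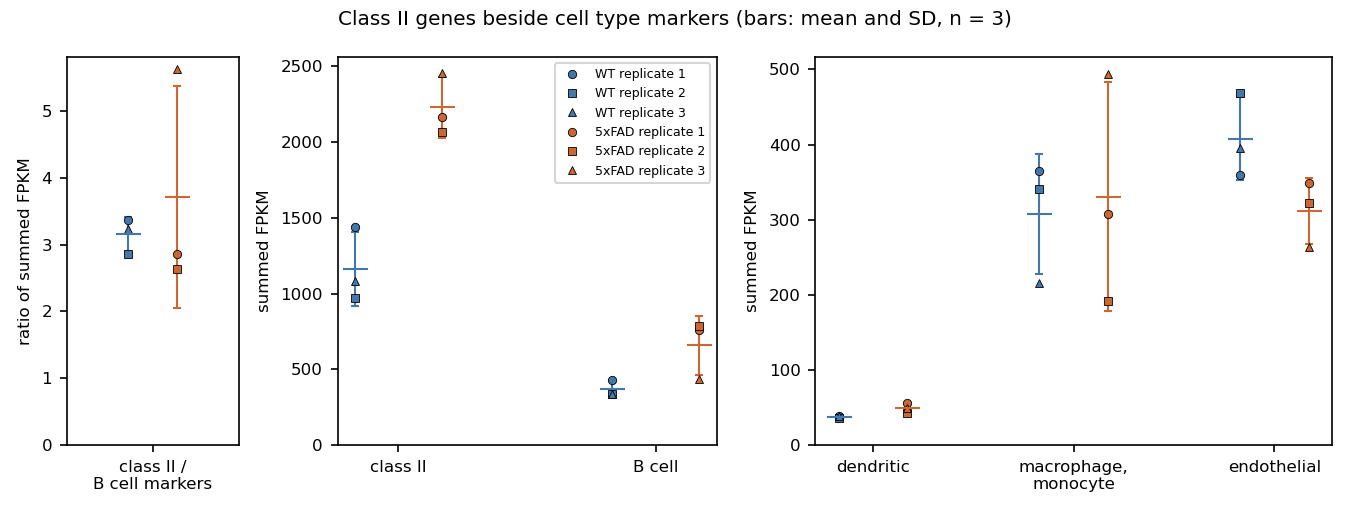
Left, ratio of the summed class II genes to the summed B cell markers; middle and right, summed FPKM of the class II genes and of marker lists, by library (points) with mean and SD (bars, n = 3). Class II and B cell sums are higher in every 5xFAD library and the endothelial sum is lower, while the ratio on the left overlaps, with 5xFAD replicate 3 at 5.63.

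The factors that act with or above Ciita were mixed in direction. Of 14 regulators tested, 6 had a positive log2 fold change, 1 was higher at an unadjusted p under 0.05, 0 were lower and 0 passed the edgeR adjustment. The 1 was Pax5, the B cell identity factor, at 50.4 ± 29.3 (WT) and 64.3 ± 34.6 FPKM (5xFAD; SD, n = 3 each; log2 fold change on counts 1.09, SE 0.47). Pax5 was also counted among the B cell markers above. Its FPKM overlapped between genotypes, with 5xFAD replicate 3 the lowest of all libraries at 24.6 FPKM. Irf8, which acts on Ciita in B cells and myeloid cells, was at 29.2 ± 10.5 and 46.2 ± 19.7 FPKM. Rfx5, the large subunit of the RFX complex, was at 8.70 ± 4.59 and 6.47 ± 1.74 FPKM and is named here after its values were seen.

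All 8 lysosomal processing genes had a positive log2 fold change and 0 were at an unadjusted p under 0.05 or past the adjustment by edgeR. Ctss, cathepsin S, which cuts the invariant chain, was at 57.2 ± 5.73 (WT) and 91.3 ± 43.9 FPKM (5xFAD), and was lowest of all libraries in 5xFAD replicate 2. Ctsd, cathepsin D, was at 44.5 ± 30.8 and 59.6 ± 31.3 FPKM. Of 6 turnover and costimulation genes tested, 1 was higher at an unadjusted p under 0.05 and 0 passed the adjustment. It was Cd40, the receptor for T cell help, which was listed at 0, 5.36 and 0 FPKM across WT replicates 1, 2 and 3, against 18.0, 15.3 and 11.02 FPKM across 5xFAD replicates 1, 2 and 3 (edgeR adjusted p = 0.358). March1, the ubiquitin ligase that removes class II from the surface, was at 16.9 ± 3.25 and 31.4 ± 15.5 FPKM, and Cd86 at 10.9 ± 12.2 and 31.1 ± 34.8 FPKM.

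Of 7 neighbours in the class II region tested, 5 had a positive log2 fold change. Their median was 0.96, near the 0.99 of the members. Of the 7, 3 were higher at an unadjusted p under 0.05, where 8.46% of all tested genes were, 0 were lower and 0 passed the edgeR adjustment. Tap1, a subunit of the class I peptide transporter, measured 21.4, 12.1 and 5.38 FPKM across WT replicates 1, 2 and 3, against 39.7, 20.7 and 23.8 FPKM across 5xFAD replicates 1, 2 and 3. The others were the immunoproteasome gene Psmb9, at 6.37 ± 6.31 and 41.2 ± 42.9 FPKM, and H2-Eb2, a second E beta-like gene, at 1.43 ± 1.45 and 7.43 ± 1.55 FPKM. The most abundant neighbours, Brd2, a bromodomain gene, and Notch4, an endothelial receptor, were at 54.2 ± 48.1 and 47.3 ± 47.9 FPKM across WT libraries, against 27.4 ± 6.99 and 5.82 ± 1.44 FPKM across 5xFAD libraries. On counts their log2 fold changes were 0.24 (SE 0.46) for Brd2, the opposite direction, and -0.14 (SE 0.48) for Notch4, whose counts overlapped between genotypes.

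The pattern over the 6 libraries was compared with that of 2513 other genes at a mean of at least 10 FPKM, leaving out predicted genes. Likeness was the root mean square distance between centred log2 profiles, with the summed chains and Cd74 as the reference and a median distance of 0.87 over the genes compared. The nearest were Pld4, an endolysosomal exonuclease (0.09), Cflar, an inhibitor of death receptor signalling (0.13), Foxo1, a transcription factor of B cell development (0.17), Fau (0.18) and Rplp1 (0.19), both of the ribosome. The profiles were taken in FPKM only. On counts the unadjusted edgeR p was 0.0929 for Pld4, 0.289 for Cflar, 0.128 for Foxo1, 0.0427 for Fau and 0.107 for Rplp1. Pld4 measured 11.1, 7.79 and 8.37 FPKM across WT replicates 1, 2 and 3, against 17.6, 19.5 and 21.1 FPKM across 5xFAD replicates 1, 2 and 3. Among the members outside the reference, Ciita was nearest (0.24), followed by H2-DMb2 (0.35), H2-DMa (0.47), H2-Ob (0.48), H2-Oa (0.85) and H2-DMb1 (1.19). The last of these lay farther away than the median gene. The distance describes 6 libraries of 2 genotypes and says nothing of shared control.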

How the data were processed

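Per the labels' protocols, RNA of magnetically selected lung B cells was depleted of ribosomal RNA and made into stranded libraries. Among the tools listed in the submitters' processing notes are HISAT2 2.0.4, cutadapt 1.9.3, Cuffdiff and Cufflinks, whose roles are not given. The notes list GRCm38 and mm10 as builds; no source used here gives the annotation release. Per the file headers, the deposited table holds FPKM and count columns for each library, and the deposited counts, often not whole, were read as estimated counts.

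Columns were matched to samples by the descriptions. Rows sharing a symbol were summed (162 rows on 79 symbols), estimated counts were rounded, and 9651 genes with a mean FPKM of at least 1 were tested with edgeR 4.0.16 (quasi-likelihood, TMM) in R 4.3.3, with a single genotype term and adjustment by Benjamini-Hochberg at 0.05. Alternatives used DESeq2 1.42.0, limma 3.58.1 on log2(FPKM + 1), other scalings and filters, and left-out libraries. SEs are the size of the log2 fold change divided by the root of the F statistic. The fit was tested on simulated data. No pair of libraries agreed within sampling noise (chi-square per degree of freedom 6.44 to 20.8). Coordinates come from GENCODE M21 (GRCm38) and promoters from RefSeq (GRCm38.p6). Beside the members, the text names the most abundant pair of each list, up to 4 context genes at an unadjusted p under 0.05, defining markers at 0 and the 5 nearest profiles. The design had provided for FPKM or counts, and 1 line of the table was emptied for this work. Members and lists were chosen with earlier results of these data known.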

Additional observations from a re-analysis of the deposited data

How the results depend on the processing

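In all 19 alternatives 0 class II members passed the adjustment; the lowest adjusted p was 0.0703, for H2-Ob. With TMM scaling on all genes the number of genes called over the table was 11. It was 7 with DESeq2-type size factors, 62 with no filter, 5 from a mean FPKM of 5, 6 with the rows of a locus summed, 63 with DESeq2, 0 with limma at a pseudocount of 1, 0 at 0.1 and 0 after quantile normalization. Leaving out 1 library gave 67, 4 and 75 genes called without WT replicates 1, 2 and 3, 3, 18 and 27 without 5xFAD replicates 1, 2 and 3 (3 to 75), 4 to 9 members reaching an unadjusted p under 0.05 and a member median of 0.78 to 1.08. With library sizes from B cell markers 47 genes were called, 0 members were at an unadjusted p under 0.05, the member median was 0.25 and H2-Ab1 turned to -0.030. On that scale and without 5xFAD replicate 3, chosen after seeing the data, 178 genes were called, 0 members were at an unadjusted p under 0.05, and the median turned to -0.14, with that of all tested genes at -0.99. There H2-Aa was at -0.32, H2-Ab1 at -0.50, H2-Eb1 at -0.33, Cd74 at -0.31, H2-DMa at -0.27 and Ciita at -0.017. The causes were not tested.

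With the replicate block, 26 genes and 0 members were called, and 9 members were at an unadjusted p under 0.05. Same-numbered libraries did not deviate together (r -0.02 to 0.02). In libraries this shallow noise alone can hold r near 0, so whether the numbers pair the samples is not settled. H2-Oa and H2-DMb1 had the lowest count of any member, 3.12 each in WT replicate 3.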
